A study of Homo sapiens with 6 samples.

Results

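The OAS family comprises OAS1, OAS2, OAS3 and OASL, 4 of the 20090 protein-coding genes to which the peak lists of this series were assigned. Histone H3 lysine 27 acetylation (H3K27ac) and H3 lysine 4 trimethylation (H3K4me3) were profiled by chromatin immunoprecipitation-sequencing (ChIP-seq) in HSC3, an established cell line of oral squamous cell carcinoma (OSCC). HSC3 cells had received either a control siRNA (siCONT) or an siRNA against the long noncoding RNA DLEU1 (siDLEU1, the study's siDLEU1-2), and were fixed 72 h later. There was 1 library for each siRNA and mark, all from this single line and a single DLEU1 siRNA, so nothing below rests on replicates and tests were not run. A region (a called peak) was assigned to a gene when it overlapped the gene body or the 5 kb upstream of it in hg19, and every region doing so was kept. By this rule the OAS genes held 4 of 19705 H3K27ac regions in siCONT cells and 2 of 17672 in siDLEU1 cells. They held 8 of 58582 H3K4me3 regions in siCONT cells and 5 of 56943 in siDLEU1 cells.

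OAS1, OAS2 and OAS3 encode 2'-5'-oligoadenylate synthetases, which bind double-stranded RNA and make short oligoadenylates, messengers of RNA decay in infected cells. OASL, the OAS-like protein, is related in sequence but is not known to make oligoadenylates, and it acts in RNA sensing. All are interferon-stimulated genes (ISGs): the ISGF3 complex, which includes STAT2 and IRF9, binds the interferon-stimulated response element (ISRE) in ISG promoters. H3K27ac marks active promoters and enhancers, and H3K4me3 marks promoters, mostly at the start of transcribed genes. The study itself reported lower H3K27ac at interferon-related genes from these same libraries, and it names OAS1 among the ISGs. The direction at OAS1 and the other OAS genes here is therefore not independent evidence.

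In the hg19 annotation, OAS1 (ENSG00000089127) occupies chromosome 12, plus strand, between 113343661 and 113371024, OAS3 (ENSG00000111331) from 113375856 to 113414265 and OAS2 (ENSG00000111335) from 113416200 to 113449528. These 3 genes form the 12q24 cluster, with 4831 bp between OAS1 and OAS3 and 1934 bp between OAS3 and OAS2. OASL (ENSG00000135114) lies 8006037 bp beyond OAS2, on the minus strand from 121455566 to 121477049. The canonical transcripts start at 113344767 (OAS1, 6 exons), 113376279 (OAS3, 16 exons), 113416324 (OAS2, 10 exons) and 121477049 (OASL, 6 exons). A noncoding gene on the minus strand spans the cluster, and these lists do not assign a region to a strand.

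The H3K27ac regions of OAS1 and OAS3 had nearly the same rank in siCONT cells and then parted in siDLEU1 cells. Of the OAS genes, only their promoters were in the RefSeq promoter table used, and both are shown. They are the 250 bases upstream of the TSS in RefSeq (GRCh38.p14 table), and each matched GRCh37 exactly at 1 place, chr12:113344517-113344766 for OAS1 and chr12:113376029-113376278 for OAS3, both on the plus strand. Capitals mark matches to the ISRE core GAAANNGAAA or to the shorter IRF motif AANNGAAA, searched on both strands; the IRF motif was added after the OAS1 sequence had been read, and it overlaps the ISRE core.
OAS1: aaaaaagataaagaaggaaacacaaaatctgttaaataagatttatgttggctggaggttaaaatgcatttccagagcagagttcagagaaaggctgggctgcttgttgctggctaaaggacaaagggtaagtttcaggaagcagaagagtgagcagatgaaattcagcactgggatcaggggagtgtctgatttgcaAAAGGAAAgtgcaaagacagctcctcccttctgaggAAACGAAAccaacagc
OAS3: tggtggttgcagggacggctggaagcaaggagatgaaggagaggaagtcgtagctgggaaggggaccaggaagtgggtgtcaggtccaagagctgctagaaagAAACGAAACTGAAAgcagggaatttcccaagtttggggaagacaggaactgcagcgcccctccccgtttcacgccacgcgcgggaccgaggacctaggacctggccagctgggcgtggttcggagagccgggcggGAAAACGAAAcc
The OAS3 promoter held 2 ISRE cores, at positions −143 to −134 and −12 to −3 from the TSS. Matches were counted over the table's full window, 250 bases upstream and 50 downstream, and all those of OAS1 and OAS3 lay upstream. Over this window an ISRE core was found in 3.57% of 35116 RefSeq promoters, and 2 or more in 0.259%. The OAS1 promoter held no exact ISRE core but 2 IRF motifs, at −52 to −45 and −16 to −9, a motif found in 22.8% of promoters. It also held 1 match to the GAS motif (gamma-activated sequence) TTCNNNGAA, at −168 to −160, found in 7.66% of promoters, and the OAS3 promoter held none. The IRF motif of OAS1 nearest the TSS ended at the base where the siCONT H3K27ac region began. At that motif the GAAA repeats lie 1 base apart, where the ISRE core pattern requires 2, so a lack of an ISRE at OAS1 is not read from this search. OAS2 and OASL were not in the promoter table.

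H3K27ac was lower at each of the 4 OAS promoters in siDLEU1 cells, and at OAS1 and OASL no region was left. The height of a region is given as summit coverage, the number of ChIP fragments at the summit relative to the genome mean of the library, recovered from the fold enrichment and p that MACS2 had given the authors. At OAS1, the siCONT region (113344758 to 113345841, 1084 bp) ran from the promoter through exon 1 into intron 1, with 87 fragments at its summit and a coverage of 58.5 times the genome mean (95% exact Poisson interval 46.8 to 72.1). No OAS1 region was called in siDLEU1 cells. At OASL, the siCONT region (121476313 to 121477297, 985 bp, over exon 1) had 84 fragments and a coverage of 56.5 (45.0 to 69.9), and again no region was called in siDLEU1 cells. Intervals and floors throughout cover counting error only.

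The absence of a call limits the level but does not show 0. Where the local background equalled the genome mean, the weakest H3K27ac region called in siDLEU1 cells had 19 fragments and a coverage of 9.91. At OAS1 the local background of the siDLEU1 control was near that mean, at 0.595 control fragments or 1.28 times the genome mean, as read from the H3K4me3 region there. Coverage at OAS1 in siDLEU1 cells was therefore not detectable at the height that a call takes, against 58.5 in siCONT cells.

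OAS3 and OAS2 kept their H3K27ac regions at a lower height. At OAS3, the siCONT region (113376166 to 113376939, 774 bp) had 117 fragments and a coverage of 78.7, and the siDLEU1 region (113376164 to 113376814, 651 bp) had 74 fragments and a coverage of 38.6. The siDLEU1 to siCONT ratio was 0.491 (95% exact conditional interval 0.362 to 0.662). Both summits lay in exon 1, 216 and 225 bp from the TSS, so the same place was marked in both libraries. At OAS2, the siCONT region (113416287 to 113417194, 908 bp) had 110 fragments and a coverage of 74.0, and the siDLEU1 region (113416298 to 113416869, 572 bp) had 39 fragments and a coverage of 20.3. The ratio at OAS2 was 0.275 (0.186 to 0.40). The downstream edge of the OAS2 region drew in from 870 to 545 bp, while its upstream edge stayed within 37 bp of the TSS.

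**Figure D1:**
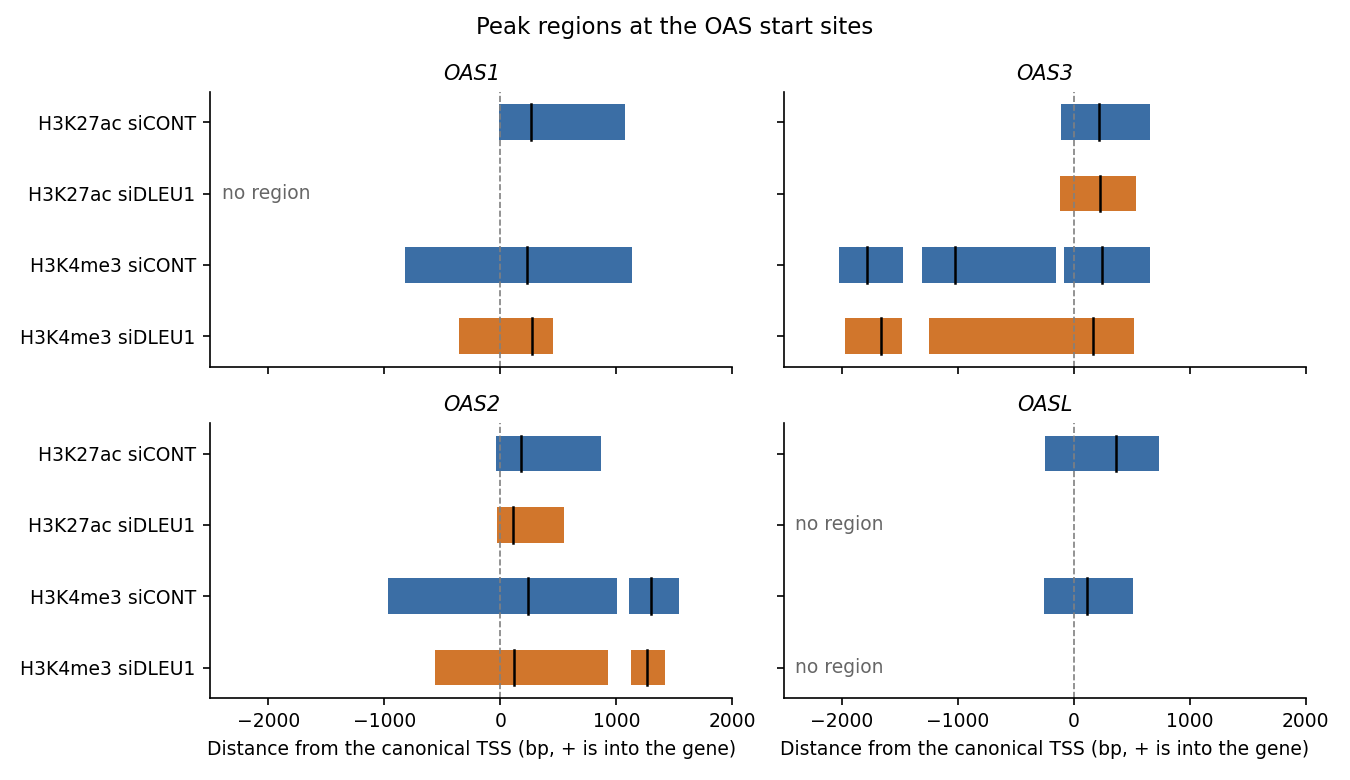
Called regions around the canonical TSS of each OAS gene. The x axis gives the distance from the TSS in bp, rows are the 4 libraries, bars are regions (blue siCONT, orange siDLEU1) and black lines are summits. The rows for siDLEU1 H3K27ac are empty at OAS1 and OASL, and OASL has no siDLEU1 region of either mark. A 201 bp H3K4me3 region inside OAS1, 9762 bp from the TSS, lies outside the axis.

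H3K27ac coverage at called regions was lower at most genes in the siDLEU1 library, so the OAS values were read against all genes. Coverage is relative to each library's own genome mean. With 1 library per siRNA and mark, a genome-wide difference in a mark and one in immunoprecipitation efficiency cannot be told apart. For both marks, the strongest region of each gene was taken separately in each list, so the regions behind a ratio need not overlap. The median coverage ratio was 0.616 over the 12285 protein-coding genes marked in both libraries, and 90% of genes lay between 0.464 and 0.838 (5th to 95th percentile). The OAS3 ratio of 0.491 lay within that range, with 8.21% of genes as low or lower, and its interval includes the median. The OAS2 ratio lay below it, with 0.204% of genes as low or lower, though by deposited fold enrichment OAS2 was not below the median of all genes (0.617 against 0.579). Divided by the median, the ratios were 0.797 at OAS3 and 0.447 at OAS2. A coverage of at most 0.5 times the siCONT value, or no region left, held for 4 of 4 OAS genes and for 14.9% of the 13056 genes with a siCONT H3K27ac region. This rule was added after the data were seen, and OAS3 met it narrowly. With ratios divided by the median it held for 3 of 4 OAS genes, and the share of all genes was not computed on that scale. No region was left at 2 of 4 OAS genes and at 5.91% of all genes.

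Most regions that were not found again in siDLEU1 cells ranked low in siCONT cells, and those of OAS1 and OASL did not. Each region was given the percentile rank of its fold enrichment within its own list, 100 being the strongest, and a gene with no region was given 0. A uniform scaling leaves this rank unmoved only where the same regions are called. The H3K27ac lists differed in size, with 19705 regions in siCONT and 17672 in siDLEU1 cells. OAS1 ranked at 68.3 and OASL at 62.8 in siCONT cells. Between the percentiles of 60 and 70 there were 1983 siCONT H3K27ac regions, and 8 of them (0.403%) had no overlapping region in siDLEU1 cells. OAS1 and OASL were 2 of these 8. OAS3 ranked at 68.1 in the same range and at 69.8 in siDLEU1 cells. OAS2 ranked at 30.7 and at 16.5, in a range (percentiles 30 to 40) where 19.6% of 1968 regions had no counterpart. The percentile was lower by 20 points or more at 2 of 4 OAS genes and at 18.4% of all genes, and the median change was −38.5 points over the OAS genes and −4.34 over all genes.

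In covered length, the H3K27ac regions spanned 3751 bp of the OAS windows in siCONT cells and 1223 bp in siDLEU1 cells, a ratio of 0.326. The cluster alone went from 2766 to 1223 bp (ratio 0.442), while the ratio of the summed length over all genes was 0.743. By gene, the ratio was 0.841 at OAS3 and 0.630 at OAS2, and 0 at OAS1 and OASL. The covered length was at most 0.5 times the siCONT length at 2 of 4 OAS genes and at 14.5% of all genes, and the median ratio was 0.315 over the OAS genes and 0.763 over all.

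**Figure D2:**
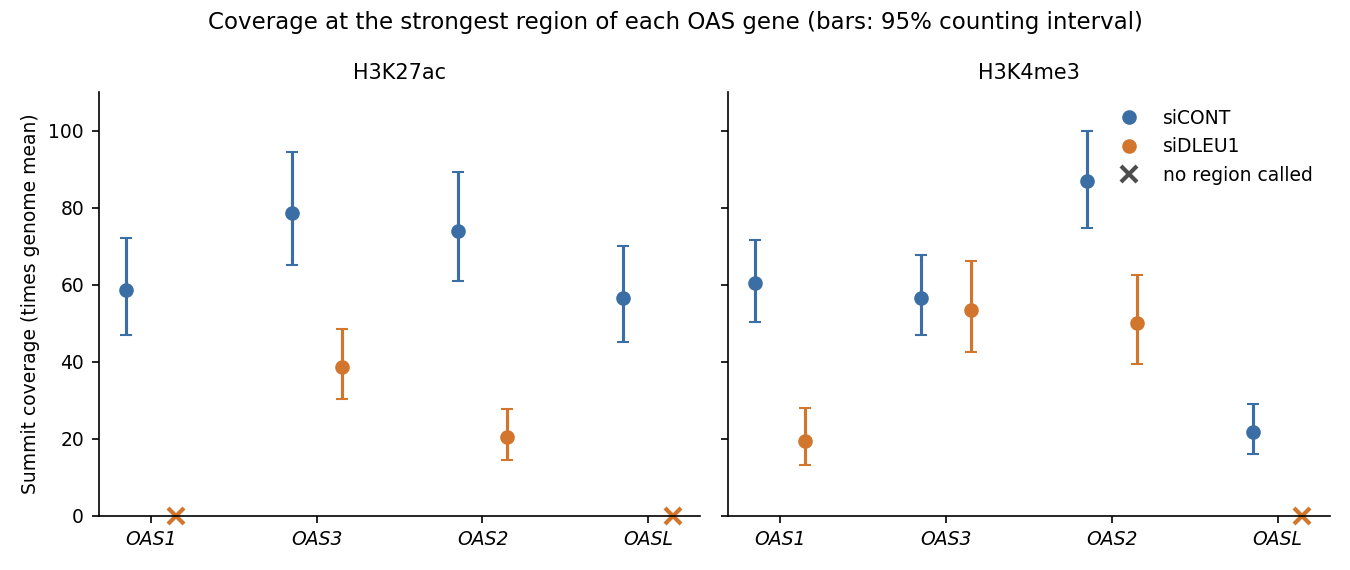
Summit coverage of the strongest region of each OAS gene, in times the genome mean of the library, for H3K27ac (left) and H3K4me3 (right). Points are single libraries, bars are 95% Poisson intervals of the fragment number and crosses mark genes with no called region, not a measured 0. In siDLEU1 cells H3K27ac ranges from 20.3 at OAS2 to 38.6 at OAS3 where a region was called, against 56.5 to 78.7 in siCONT cells.

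H3K4me3 differed between the genes: it was lower at OAS1 and OAS2, nearly the same at OAS3, and no region was left at OASL. The strongest OAS1 region of siCONT cells (113343948 to 113345905, 1958 bp) had 127 fragments and a coverage of 60.3, and the siDLEU1 region (113344414 to 113345218, 805 bp) had 30 fragments and a coverage of 19.5. The ratio was 0.324 (0.210 to 0.485). The narrower region lay wholly inside the wider one and covered 41.1% of it. Another OAS1 region of siCONT cells, 201 bp over exon 4 and intron 4 with 26 fragments, had no counterpart in siDLEU1 cells. At OASL, the siCONT region (121476535 to 121477302, 768 bp) had 46 fragments and a coverage of 21.8 (16.0 to 29.1). The weakest siDLEU1 H3K4me3 region at genome-mean background had a coverage of 9.11. The siDLEU1 background at OASL is not known, so a level there above 9.11 could also have gone uncalled.

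At OAS2, H3K4me3 coverage was 86.9 in siCONT cells (183 fragments, 1968 bp) and 50.1 in siDLEU1 cells (77 fragments, 1495 bp), a ratio of 0.577 (0.436 to 0.756). A smaller OAS2 region in intron 1, with its summit 1296 bp from the TSS in siCONT cells, went from 27.1 to 17.6. At OAS3, coverage at the strongest region was 56.5 in siCONT cells (119 fragments) and 53.3 in siDLEU1 cells (82 fragments), a ratio of 0.944 (0.704 to 1.26) that leaves room for a change in either direction. OAS3 also carried H3K4me3 further upstream in both libraries, in a stretch that H3K27ac regions did not reach. There siCONT cells had regions with coverages of 33.2 (summit at −1781) and 53.2 (summit at −1020). In siDLEU1 cells the first of these had a coverage of 35.8, and the other was joined to the TSS region in a single stretch of 1771 bp, from −1252 to 518. The ISRE core at −143 to −134 lay between 2 siCONT H3K4me3 regions and inside this siDLEU1 one.

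Genome-wide, H3K4me3 coverage was higher in siDLEU1 cells, with a median ratio of 1.25 over 13331 genes (5th to 95th percentile 0.764 to 1.95). Against this, 0.0375% of genes had a ratio as low as that of OAS1, 1.13% as low as that of OAS2 and 15.7% as low as that of OAS3. Divided by the median, the ratios were 0.259 at OAS1, 0.462 at OAS2 and 0.756 at OAS3. H3K4me3 coverage was at most 0.5 times the siCONT value, or no region was left, at 2 of 4 OAS genes and at 3.25% of the 13717 genes with a siCONT region. No region was left at 1 of 4 OAS genes (OASL) and at 2.81% of all genes.

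The H3K4me3 rank of OAS1 was at percentile 94.6 in siCONT cells and 38.6 in siDLEU1 cells, a change of −56.0 points that was matched or exceeded at 0.583% of genes. OASL ranked at 57.1 in siCONT cells, in a range (percentiles 50 to 60) where 13.7% of 5755 regions had no counterpart. OAS3 and OAS2 had nearly the same rank by fold enrichment in both libraries, at 85.7 and 86.9 for OAS3 and at 75.3 and 79.1 for OAS2. The percentile was lower by 20 points or more at 2 of 4 OAS genes and at 7.87% of all genes. The median change was −27.4 points over the OAS genes and 0.243 over all genes.

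H3K4me3 regions spanned 7780 bp of the OAS windows in siCONT cells and 4859 bp in siDLEU1 cells (ratio 0.625), against a ratio of 0.878 for the summed length over all genes. Within the cluster they spanned 7012 and 4859 bp (ratio 0.693). By gene the ratio was 0.373 at OAS1, 0.922 at OAS3, 0.747 at OAS2 and 0 at OASL. It was at most 0.5 at 2 of 4 OAS genes and at 7.75% of all genes, with a median of 0.560 over the OAS genes and 0.890 over all.

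**Figure D3:**
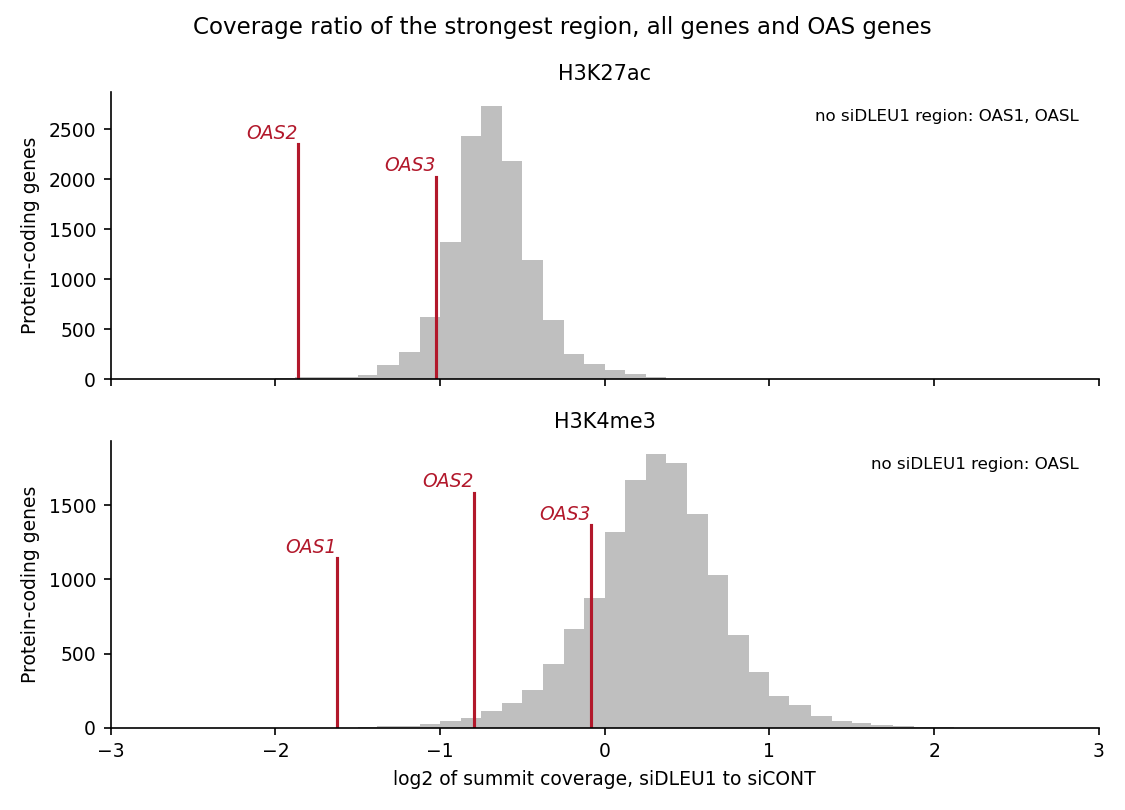
Distribution of the siDLEU1 to siCONT ratio of summit coverage (x axis, log2) over protein-coding genes marked in both libraries (y axis, number of genes), with the OAS genes in red at their own ratio; line heights carry no value. For H3K27ac, OAS3 (ratio 0.491) lies within the bulk of genes and OAS2 (0.275) to its left, and for H3K4me3 OAS1 (0.324) is farthest to the left of the OAS genes.

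OAS1 and OASL were low in both marks. Of 12513 genes with a region of each mark in siCONT cells, 138 (1.1%) had at most 0.5 times the coverage, or no region left, in both marks, and OAS1 and OASL were among them. OASL was 1 of 101 genes (0.807%) with no region of either mark in siDLEU1 cells. In siCONT cells, the H3K27ac regions of OAS1 and OAS2 lay entirely under H3K4me3, that of OAS3 for 95.7% of its length and that of OASL for 77.5%. At OAS1 in siDLEU1 cells a narrowed H3K4me3 region stood without a called H3K27ac region.

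In siCONT cells, H3K27ac coverage ran from OAS3 (78.7) through OAS2 (74.0) and OAS1 (58.5) to OASL (56.5), and the intervals of neighbours in this order overlapped. In siDLEU1 cells OAS3 (30.3 to 48.5) stood above OAS2 (14.5 to 27.8) without overlap. For H3K4me3, OAS2 was highest in siCONT cells (74.7 to 100) and OASL lowest (16.0 to 29.1). The intervals of OAS1 and OAS3 between them overlapped. In siDLEU1 cells OAS3 (53.3) and OAS2 (50.1) could not be told apart by their intervals, and OAS1 (19.5, interval 13.2 to 27.9) lay below both.

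The fold enrichment in the deposited lists gave another picture of OAS2 and OAS3, as it divides by a local background that differed between the siRNAs. At OAS2 the siCONT background was 3.0 control fragments (6.04 times the genome mean of the control) and the siDLEU1 background 0.704 in the H3K27ac lists. H3K27ac fold enrichment at OAS2 was 9.44 and 5.82, a ratio of 0.617 where coverage gave 0.275. The H3K27ac fold ratio at OAS3 was 0.622, so by fold enrichment neither gene lay below the median of all genes. For H3K4me3 at OAS2 it was 11.8 and 13.9, a ratio of 1.18 where coverage gave 0.577, so the direction differed. The median H3K4me3 fold ratio over all genes was 1.12, close to those of OAS2 and OAS3. At OAS3 the background was 1.0 and 0.463 control fragments in the H3K4me3 lists, and the fold ratio was 1.13. Such backgrounds rest on 1 to 3 control fragments, and the percentile ranks of OAS2 and OAS3 are ranks of these fold values. Ranked by fragments instead, the H3K27ac change was −56.5 points at OAS2 (−33.4 by −log10 p), against −14.2 by fold enrichment, and −21.2 at OAS3, and the H3K4me3 change was −7.83 points at OAS3 and −19.3 at OAS2. The OAS1 backgrounds were 0.532 and 0.595, near the genome mean, and its H3K4me3 fold ratio (0.292) was close to its coverage ratio.

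The 4 promoters differed in base composition, a feature the rule did not use. CpG content is given as the ratio of observed to expected CpG over the 1001 bases around the siCONT H3K27ac summit in GRCh37. It was 0.128 at OAS1, 0.226 at OASL, 0.279 at OAS2 and 0.678 at OAS3, against a median of 0.747 over all siCONT H3K27ac regions. A ratio as low or lower was found in 0.299% of regions for OAS1, 1.79% for OASL, 3.0% for OAS2 and 33.7% for OAS3. The 2 genes without a siDLEU1 H3K27ac region thus had the lowest CpG ratios of the 4 and OAS3 the highest, a description over 4 genes. G+C content was 46.9% at OAS1 and 53.1% to 55.9% at the others, against a median of 61.7%.

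CpG-poor regions were also missed more often as a whole. Among the 986 siCONT H3K27ac regions in the lowest 5% by CpG ratio, which include OAS1, OAS2 and OASL, 66.2% had no counterpart in siDLEU1 cells, against 19.9% of the others. Most of them ranked low, however. Between the percentiles of 60 and 70, 23 regions were this poor in CpG and 3 of them had no counterpart, OAS1 and OASL being 2 of the 3. Among the 1960 others of that rank range it was 5. For genes marked in both libraries, the H3K27ac coverage ratio had a median of 0.603 where the strongest region was this CpG-poor (174 genes) and 0.616 elsewhere. The part of base composition in the OAS values was not tested.

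**Figure D4:**
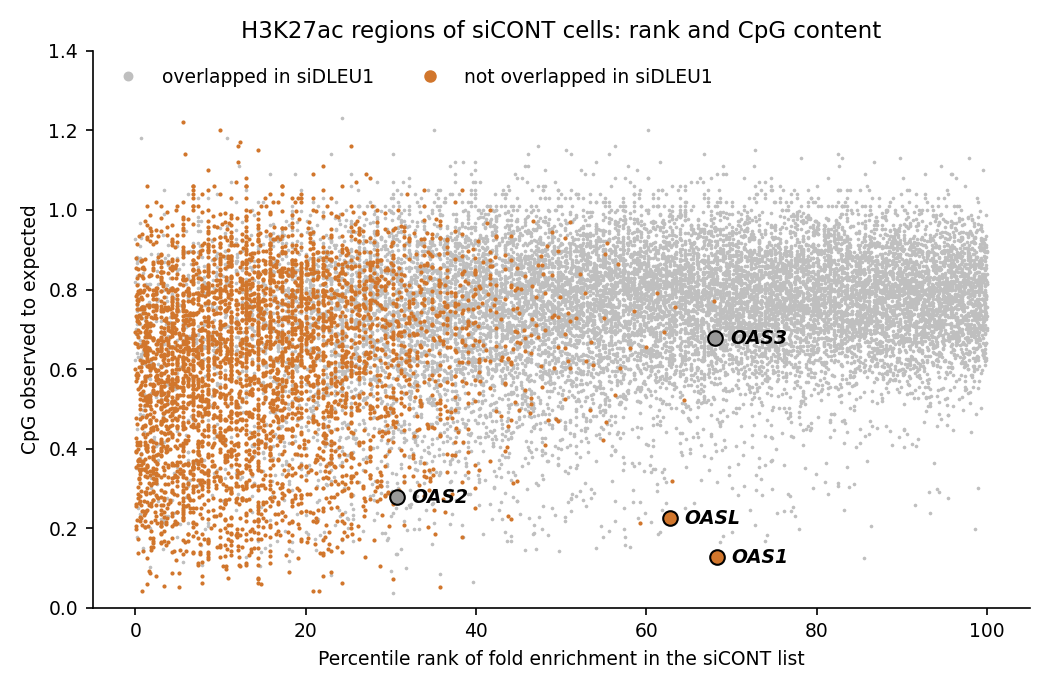
All H3K27ac regions of siCONT cells by percentile rank of fold enrichment (x axis) and ratio of observed to expected CpG around the summit (y axis). Orange regions had no overlapping region in siDLEU1 cells and grey ones did, and large points are the OAS genes. OAS1 (rank 68.3, CpG ratio 0.128) and OASL (62.8, 0.226) lie in a sparse area of high rank and low CpG, while OAS3 (68.1, 0.678) lies among the bulk.

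Genes that act beside the OAS enzymes were also marked in HSC3. ABCE1, an inhibitor of the pathway, had an H3K27ac coverage of 68.6 in siCONT and 51.1 in siDLEU1 cells, a ratio of 0.746 (0.559 to 0.994). CNP, a nucleotide phosphodiesterase, had a ratio of 0.605 (0.471 to 0.776). Both ratios lay within the range of most genes, unlike that of OAS2. At PDE12 and AKAP7, phosphodiesterases that degrade oligoadenylates or resemble those that do, the strongest regions of the 2 lists did not overlap, so no ratio is read from them. ENPP1, also a phosphodiesterase, had no H3K27ac region in either library. The H3K4me3 ratio was 1.69 (1.21 to 2.35) at ABCE1 and 0.780 (0.592 to 1.02) at CNP.

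The genes of 5 factors that drive OAS transcription kept their H3K27ac regions. STAT2 and IRF9, which bind the ISRE as part of ISGF3, had H3K27ac coverage ratios of 0.415 (0.311 to 0.551) and 0.414 (0.312 to 0.547). IRF1, an interferon-induced activator, had one of 0.489 (0.378 to 0.630), IRF3 one of 0.597 (0.448 to 0.793) and IRF7 one of 0.552 (0.394 to 0.769). By coverage, the values of STAT2 and IRF9 lay between those of OAS2 and OAS3. By fold enrichment their H3K27ac ratios were 0.791 and 0.755, above those of OAS2 (0.617) and OAS3 (0.622). Both also lay above the median of all genes (0.579). The local background at STAT2 and IRF9 was higher in siCONT than in siDLEU1 cells, as at OAS2 and OAS3. The H3K27ac fold ratio was 0.613 at IRF1, 0.563 at IRF3 and 0.393 at IRF7. The H3K4me3 coverage ratio was 0.743 (0.607 to 0.906) at IRF9 and 1.30 (1.02 to 1.64) at IRF7. By fold enrichment it was 1.30 at IRF9, so the direction differed there, and 1.13 at IRF7. The H3K4me3 background at IRF9 was 3.0 control fragments in siCONT and 1.0 in siDLEU1 cells.

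Genes next to the OAS loci were compared to see how far the pattern reached. RPH3A, on the OAS1 side of the cluster, had a 272 bp H3K27ac region in siCONT cells only, at percentile 29.3, and an H3K4me3 ratio of 1.08 (0.742 to 1.55) at a region 29843 bp from its nearest TSS. DTX1, beyond OAS2, had no region in any list, and P2RX7, beside OASL, had no H3K27ac region.

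By the 4 ranks together, the genes most like OAS1 were SMIM40, at a Euclidean distance of 12.3 percentile points, and HCCS at 18.4. Those most like OASL were NUB1 (4.27) and CTNNA3 (10.9). OAS3 was closest to SCRN2 (3.43) and IGF2R (3.47), and OAS2 to CRTC1 (4.51) and CASP4 (5.70). OAS1 thus had its nearest gene farther away than the other OAS genes did.

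Depth and the labels bear on these values. The recovered depth was 21.5 M reads (siCONT) and 29.4 M (siDLEU1) for H3K27ac, and 28.4 M and 22.3 M for H3K4me3. At genome-mean background the weakest H3K27ac region called had 13 fragments in siCONT and 19 in siDLEU1 cells, or coverages of 8.74 and 9.91. The part of depth in the missing calls was not tested. HSC3 carried H3K27ac at all 4 epithelial genes examined (KRT5, KRT14, TP63, CDH1) and at neither of the leukocyte genes PTPRC and CD3E. H3K4me3 regions were also called at the 4 epithelial genes and not at CD3E. PTPRC did hold H3K4me3 regions, 1 in siCONT cells (percentile 23.4) and 3 in siDLEU1 cells (strongest at 40.2). The lists hold no RNA level, so the knockdown itself could not be checked in these libraries, and at the canonical DLEU1 TSS H3K27ac coverage was 109 in siCONT and 68.9 in siDLEU1 cells. In such bulk samples, fewer cells carrying a mark and less of it in every cell cannot be told apart.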

How the data were processed

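The authors sequenced immunoprecipitated DNA on an Ion Proton, aligned the reads to hg19 (bowtie2), called peaks with MACS2 and deposited 1 peak list for each of the 4 ChIP libraries. Each deposited list gives positions, the fold ratio over local background, −log10 p and −log10 q, and a display score that was not used. MACS2 settings and the control library are not given in the sources used here. The 2 input libraries were not analysed here.

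Fragments at each summit were solved from its fold enrichment and p, and coverage is their number over the genome mean of the library. Read depth assumes a genome of 2.7 Gb. The solver was tested on simulated data. Genes were those of GENCODE v44lift37 on chromosomes 1 to 22 and X. The genes named were the OAS genes, lists of the pathway and its factors, adjacent genes and the genes nearest in rank. Some genes of these lists are not reported here. Members and lists were chosen with earlier results of these data known. With 1 library per siRNA and mark, no test was run. Alternatives tried were a stricter −log10 q (10 or more), other windows, stitched regions, equal numbers of regions, other ranks and, for overlap, 50% of both regions. The coverage call rule (0.5 times or no region left), the median scaling, the CpG ratio and the IRF motif were added after the data were seen. Python 3.11.15, numpy 2.4.6, pandas 2.3.3, scipy 1.17.1 and matplotlib 3.10.9 were used.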

Additional observations from a re-analysis of the deposited data

How the results depend on the processing

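No paired analysis was possible because each siRNA and mark has a single library, and for the same reason no replicate could be left out. At a stricter −log10 q (10 or more), the H3K27ac ratio of covered length over the OAS windows was 0.174, the region of OAS2 being lost as well (ratio 0), and the median change in H3K27ac rank was −29.6 points. Under that threshold OASL had no H3K4me3 region in siCONT cells, which left 3 genes for H3K4me3. The median change in H3K4me3 rank then turned to 5.11 points, with 1 gene at or under 0.5 times the covered length and 1 lower by 20 points or more. Ranked by −log10 p or by recovered fragments, the median change in H3K27ac rank was −46.6 and −56.2 points, and by fragments it was −33.9 for H3K4me3 and 4 genes were lower by 20 points or more in H3K27ac. By deposited fold enrichment, 2 OAS genes rather than 4 were at or under 0.5 times the siCONT H3K27ac level. With coverage ratios divided by the median of all genes it was 3 for H3K27ac, and 3 rather than 2 for H3K4me3. Directions turned at OAS3 and OAS2. The H3K27ac rank change of OAS2 kept its direction but went from −14.2 to −33.4 by −log10 p and −56.5 by fragments. That of OAS3 was −5.97 at the stricter q, −8.36 by −log10 p and −21.2 by fragments. The H3K4me3 rank change of OAS3 was −2.93 and −7.83, and that of OAS2 −10.4 and −19.3, by −log10 p and by fragments. By fold enrichment the H3K4me3 ratio was 1.13 at OAS3 and 1.18 at OAS2. Directions at OAS1 and OASL did not turn under any alternative that gave a value. For OAS1 in H3K27ac and OASL in both marks this was fixed by the missing siDLEU1 region, unless a wider window brought one in. Only the H3K4me3 values of OAS1 were free to turn. Of 106 single-gene values recomputed, 76 stayed within 1.1 times or 5 points, 21 moved further and 9 turned direction. The 76 include ratios of 0 that were fixed in this way.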

Other observations

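OASL2P, a unitary pseudogene beside OASL, lies outside the windows above and was looked at after its values were seen. Just upstream of its start, siCONT cells had an H3K4me3 region of 1027 bp (121497724 to 121498750 on chromosome 12, hg19) with 72 fragments and a coverage of 34.2 times the genome mean. The siDLEU1 region there was 313 bp with 17 fragments and a coverage of 11.1. Neither library had an H3K27ac region at this place.

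Between OAS2 and DTX1, also looked at after the values were seen, 3 H3K4me3 regions of 430, 220 and 308 bp were called in siDLEU1 cells, with coverages of 15.6, 13.7 and 21.5. No region of either mark was called there in siCONT cells.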
